A study of Hordeum vulgare with 10 samples.

Results

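The PHT1 genes encode plasma membrane transporters of inorganic phosphate (Pi). The barley members measured here were MLOC_28370 (PHT1;1), MLOC_6187 (PHT1;4) and MLOC_80912 (PHT1;6). They were chosen by their identifiers in the study's list of Pi-related barley genes, and they are 3 of the 24313 genes of the root table. Other barley PHT1 genes that the study names have no entry in that list and were not measured separately. The PHT1 genes below are therefore these 3, not the whole family. PHT1 proteins carry Pi into cells together with protons, and high-affinity members such as PHT1;1 take up Pi from the soil solution into roots. PHT1;6 is known in barley as a low-affinity transporter that is also active in shoots. In Arabidopsis, PHT1 proteins are removed through the E2 enzyme PHO2 and the E3 ligase NLA, while PHO1 loads Pi into the xylem.

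Poly(A) RNA of spring barley (Hordeum vulgare), cultivar Rolap, was sequenced from roots and shoots of 2-week-old plants. Heat-stressed plants were held at 35.5 °C for 1 h, and control plants at a constant 22 °C. The labels name no mutant, transgene or other agent. There were 2 heated and 2 control root libraries, and 3 heated and 3 control shoot libraries, stated to be biological replications. The deposited tables hold group means of normalised read counts, that is, reads divided by a size factor of each library. These means were split back into the reads of single libraries, and every group mean of the PHT1 genes had a single whole-read solution. Within each group, library 1 is the one with the largest size factor, since the recovered libraries carry no replicate letter. The libraries held 16026856 to 16830180 reads in genes in roots and 14820858 to 16672325 in shoots. For shoots this total is partly an estimate, since the most abundant genes, with 40.4% to 47.4% of the gene reads, were not split. The p-values below measure only the spread between these libraries, which edgeR estimates for each gene with the help of the other genes tested. The tables pair identifiers with no gene names outside the study's list, so the tissue labels were not checked against marker genes.

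PHT1;1 had the largest heat response of the PHT1 genes in roots. The heated root libraries held 77 and 90 reads, which are 90.2 and 107.6 normalised counts, and the control root libraries 982 and 989 reads, or 804 and 853 normalised counts. Both heated libraries lay far below both control libraries, and libraries of the same treatment differed little. Scaled to 1000000 reads in genes (CPM), PHT1;1 lay at 4.63 and 5.62 CPM in heated roots and at 58.3 and 61.3 CPM in control roots. The log2 change was -3.07 (standard error 0.148, 95% interval -3.42 to -2.72, quasi-likelihood test of edgeR, adjusted p = 8.6e-06). Expression of PHT1;1, PHT1;4 and PHT1;6 was decreased in heated roots at an adjusted p under 0.05, so 3 of 3 PHT1 genes were called lower, where 22.4% of the 18453 genes tested were called lower. The median log2 change was -0.81 over the PHT1 genes and -0.0035 over all genes tested. In whole roots, less RNA per cell and fewer cells that express a gene cannot be told apart. The study describes the sequence of MLOC_28370 as identical to PHT1;1, PHT1;2 and PHT1;9, so its reads may stem from any of these transporters. Reads with several alignments, which are in no gene count, made up 4.04% of the normalised reads in heated and 2.82% in control roots, and their part in this result was not tested.

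**Figure D1:**
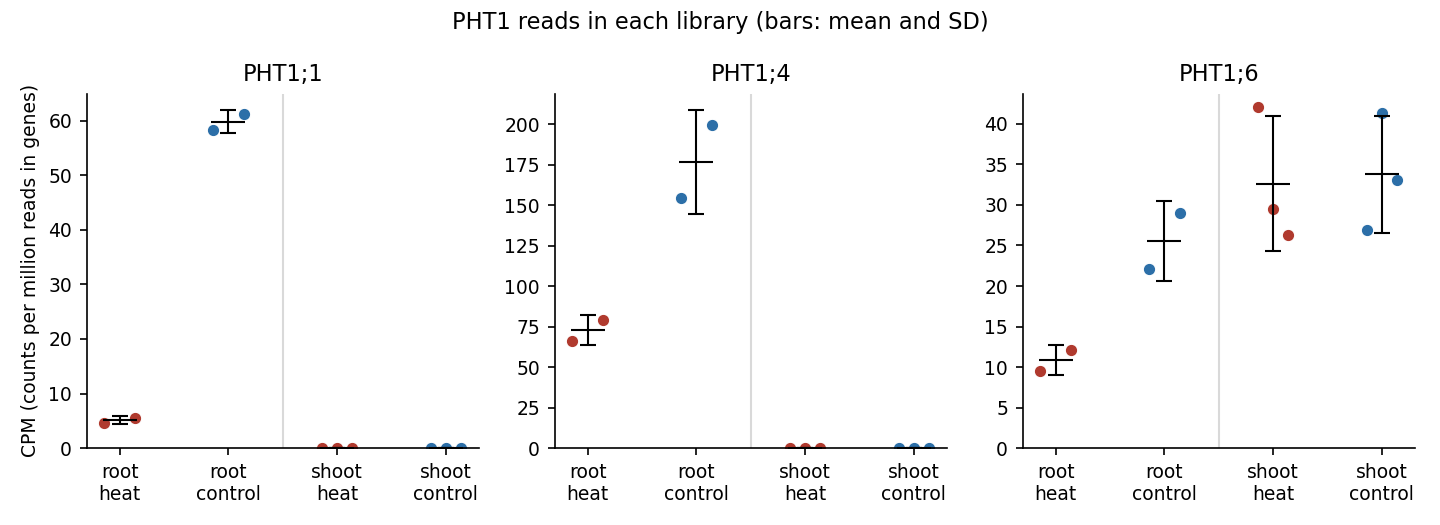
CPM, that is, reads scaled to 1000000 reads in genes (vertical axes, from 0, a separate scale for each gene), of PHT1;1, PHT1;4 and PHT1;6 in the heated (red) and control (blue) root and shoot libraries. Points are libraries and bars are the mean and SD. PHT1;1 lies at 4.63 and 5.62 in heated and at 58.3 and 61.3 in control roots, and the shoot points of PHT1;6 overlap between treatments.

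In shoots, no read of PHT1;1 was counted in any of the 3 heated or 3 control libraries. A count of 0 was taken to allow up to 3 reads over a group, or 0.0645 CPM in heated and 0.0637 CPM in control shoots. This floor is a chosen value, and the bounds below include no counting error of the root reads. A heat response of PHT1;1 in shoots was therefore not detectable at this depth. Set against this floor, the level of PHT1;1 in roots was at least 79.3-fold higher than in shoots under heat stress and at least 939-fold higher in control plants. These bounds, in CPM of all reads in genes, depend on the scaling. On the TMM scale of the fit over all 10 libraries, added after the data were seen, the level in roots was at least 36.6-fold higher under heat stress and at least 401-fold higher in control plants.

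PHT1;4 was also decreased in heated roots, to a smaller degree. It had 1105 and 1271 reads, or 1294 and 1519 normalised counts, in heated roots, against 2597 and 3218 reads, or 2126 and 2775 normalised counts, in control roots. The groups did not overlap, though the share of all genes whose root libraries separate in this way is not given here. The control libraries stood further apart than the heated ones. Control library 2 was 1.31 times library 1 (exact 95% interval for counting error 1.24 to 1.38), and heated library 2 was 1.17 times library 1 (1.08 to 1.27). The log2 change was -0.81 (standard error 0.153, 95% interval -1.17 to -0.44, quasi-likelihood test of edgeR, adjusted p = 0.0051).

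Shoots held almost no PHT1;4. The heated shoot libraries had 1, 2 and 0 reads and the control shoot libraries 2, 3 and 2. These 3 heated and 7 control reads give a ratio of 0.509 with an exact 95% interval for counting error of 0.0849 to 2.23, so neither a fall nor a rise could be resolved (exact two-sided permutation test over libraries, p = 0.30, with 0.10 the smallest value 3 against 3 libraries allow). These reads were too few for the edgeR fit of shoots. Its level in CPM was 1153 times higher in roots than in shoots under heat stress (exact 95% interval for counting error 386 to 5479) and 1192 times higher in control plants (577 to 2962). In the TMM-scaled fit over all 10 libraries the differences were smaller, 486-fold under heat stress and 490.5-fold in control plants, or on the log2 scale 8.92 (standard error 0.301, adjusted p = 2.5e-12 from edgeR) and 8.94 (standard error 0.254, adjusted p = 4.4e-13 from edgeR). With so few shoot reads their size is uncertain. Over 18 alternative fits the log2 difference ranged from 6.27, with a pseudocount of 10, to 9.98 under heat stress, and from 6.98 to 10.15 in control plants, and without heated shoot library 2 it was 9.83 under heat stress. In the fit of all libraries 76.2% of 19180 genes were called between roots and shoots under heat stress and 75.0% in control plants.

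PHT1;6 was the only one of the PHT1 genes measured with substantial reads in both tissues. In roots it had 159 and 195 reads, or 186 and 233 normalised counts, in heated plants, against 371 and 469 reads, or 304 and 404 normalised counts, in control plants. The highest heated library stayed below the lowest control library, a separation whose share over all genes is not given here. The log2 change was -0.76 (standard error 0.196, 95% interval -1.22 to -0.30, quasi-likelihood test of edgeR, adjusted p = 0.018). The call was lost when heated library 1 was left out, with a log2 change of -0.60. Without control library 2 the fall was smaller still, at -0.54, though the call was kept. Each of these fits had a single library in the group concerned. Over 11 alternative fits its adjusted p ranged from 0.00094 to 0.071. For PHT1;1, PHT1;4 and PHT1;6 alike, library 2 was the higher one in heated and in control roots.

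In shoots PHT1;6 had 682, 457 and 392 reads, or 700, 493 and 450 normalised counts, in heated plants. In control plants it had 449, 651 and 490 reads, or 381, 592 and 483 normalised counts. The groups overlapped, with means of 548 ± 134 in heated and 485 ± 106 in control shoots (SD, n = 3 each). The highest library was 1.56 times the lowest in heated and 1.55 times in control shoots, while the heated mean was 1.13 times the control mean. The log2 change was 0.18 (standard error 0.178, 95% interval -0.21 to 0.57, quasi-likelihood test of edgeR, adjusted p = 0.46), and 38.5% of the 16216 genes tested in shoots were called. Its sign turned without heated shoot library 1, to -0.037, and with scaling to all reads in genes, to -0.047.

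The heat response of PHT1;6 differed between the tissues. Subtracting the log2 change of shoots from that of roots gave -1.07 (standard error 0.305, 95% interval -1.73 to -0.42, adjusted p = 0.025 from an interaction term in edgeR), where 18.3% of 19180 genes were called. The root libraries did not overlap between treatments and the shoot libraries did. Groups of 2 libraries separate more easily than groups of 3, and the share of all genes with such a pattern is not given here. The overlap therefore adds nothing to the interaction term. The adjusted p from edgeR was 0.14 without heated root library 1, 0.092 without control root library 2 and 0.080 without heated shoot library 1. The difference kept its sign in these fits, at -0.84, -0.85 and -0.79. Over 18 alternative fits the adjusted p ranged from 0.012 to 0.14. For PHT1;1 and PHT1;4 the same contrast has no interpretable value, since shoots held 0 to 3 reads of each per library.

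**Figure D2:**
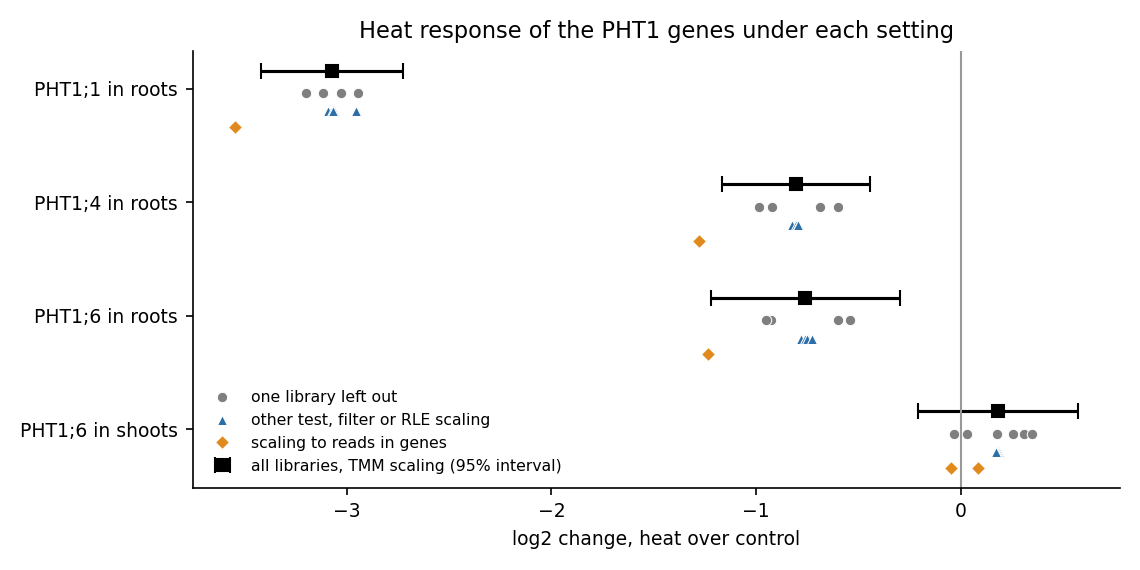
Log2 change of heat over control (horizontal axis) for each PHT1 gene and tissue that could be tested. Black squares are the edgeR fit of all libraries with the 95% interval, grey circles are fits with 1 library left out, blue triangles are other tests, filters or RLE scaling, and orange diamonds are scalings to reads in genes. All root values lie below 0, and the shoot values of PHT1;6 lie on both sides of 0.

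The size of the root response depended on the scaling, its direction did not. Scaled to the total reads in genes of each library, the log2 changes were -3.55 for PHT1;1, -1.28 for PHT1;4 and -1.23 for PHT1;6. Under that scaling the median over all genes tested was -0.48, with 1916 genes called higher and 9071 lower, against 3972 higher and 4132 lower with TMM scaling.

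Ratios between the PHT1 genes of 1 library do not depend on the scaling of libraries. In heated roots there were 0.0697 and 0.0708 reads of PHT1;1 for each read of PHT1;4, against 0.378 and 0.307 in control roots. The heated ratio was 0.206 of the control ratio, a difference in mean log2 ratio of -2.28. Both heated ratios lay far below both control ratios. PHT1;6 had 0.144 and 0.153 reads for each read of PHT1;4 in heated and 0.143 and 0.146 in control roots, and these ratios overlapped. The exact two-sided permutation test gave p = 0.33 for PHT1;1 over PHT1;4, the smallest value that 2 against 2 libraries allow, and p = 0.67 for PHT1;6 over PHT1;4. The 95% intervals of the edgeR log2 changes of PHT1;1 and PHT1;4 did not overlap, while those of PHT1;4 and PHT1;6 did. These intervals do not use the fact that the genes were counted in the same libraries. They are no test of a difference between genes, and their overlap does not show equal responses.

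PHT1;1 also held a smaller part of the reads of the 3 genes in heated roots. PHT1;1 made up 5.74% (Wilson 95% interval 4.62% to 7.12%) and 5.78% (4.73% to 7.06%) of the reads of the 3 genes in heated roots. In control roots it made up 24.9% (23.5% to 26.2%) and 21.2% (20.0% to 22.3%). PHT1;4 held the largest share of the reads in every root library, with a mean of 82.0% ± 0.507 in heated and 67.3% ± 2.17 in control roots (SD, n = 2 each). The share of PHT1;6 was 12.2% ± 0.478 in heated and 9.71% ± 0.451 in control roots (SD, n = 2 each). In each case the heated libraries lay on one side of the control libraries, and the exact permutation test could not go below p = 0.33. These shares count reads, and are no measure of relative transcript abundance, because reads were not divided by transcript length. In shoots PHT1;6 accounted for 99.6% to 100% of the reads of the 3 genes in each heated library and for 99.5% to 99.6% in each control library. Summed over the 3 genes, the level was 80.5 and 97.1 CPM in heated roots, against 235 and 290 CPM in control roots. In normalised counts the sum was 1570 and 1860 in heated and 3233 and 4032 in control roots, a smaller fall in proportion. The intervals cover counting error only.

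**Figure D3:**
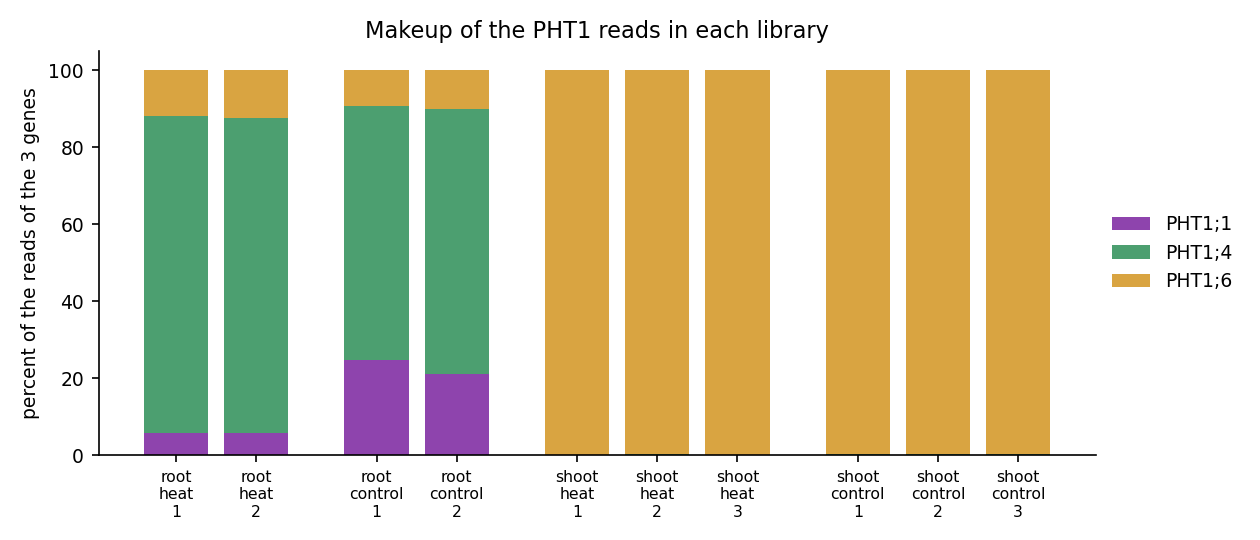
Percent of the reads of the 3 PHT1 genes (vertical axis, from 0) held by PHT1;1, PHT1;4 and PHT1;6 in each of the 10 libraries, numbered within their group. PHT1;1 narrows to 5.74% and 5.78% in heated roots against 24.9% and 21.2% in control roots, and shoots hold nearly only PHT1;6.

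The difference in PHT1;6 level between roots and shoots depended on the scaling. It lay at 9.55 and 12.2 CPM in heated roots and at 42.1, 29.5 and 26.3 CPM in heated shoots. In control plants it lay at 22.0 and 29.1 CPM in roots and at 26.9, 41.3 and 33.1 CPM in shoots. Roots and shoots were thus apart under heat stress and overlapped in control plants on this scale. With TMM scaling over the split genes, roots minus shoots was -2.70 on the log2 scale under heat stress (standard error 0.235, adjusted p = 9.2e-08 from edgeR) and -1.63 in control plants (standard error 0.217, adjusted p = 8.4e-06 from edgeR). Scaled to all reads in genes, the difference was -1.59 under heat stress (adjusted p = 1.3e-05 from edgeR) and -0.40 in control plants (standard error 0.212, adjusted p = 0.085 from edgeR, against 1.3e-12 to 0.085 over 18 alternative fits). This scaling was added after the data were seen, and it moved the median over all genes to 1.20 under heat stress and 1.40 in control plants, against 0.09 and 0.17 with TMM. With it 13993 genes were called higher and 3534 lower in control roots than in control shoots, against 7977 and 6404 with TMM. Ordered by mean CPM, PHT1;6 was lowest in heated roots, followed by control roots, heated shoots and control shoots, and these last groups overlapped.

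Compared with the other genes tested in roots, the fall of PHT1;1 was among the deepest at its level. Of 5979 genes within 2-fold of its mean normalised count, 19 had a lower log2 change, or 0.318%, and of all 18452 other genes 130, or 0.705%. For PHT1;4, 206 of 2683 genes within 2-fold of its level had a lower log2 change (7.68%), and for PHT1;6, 935 of 6150 (15.2%). In shoots, 66.9% of 4215 genes at the level of PHT1;6 had a lower log2 change than it had. These ranks describe the libraries and carry no test.

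**Figure D4:**
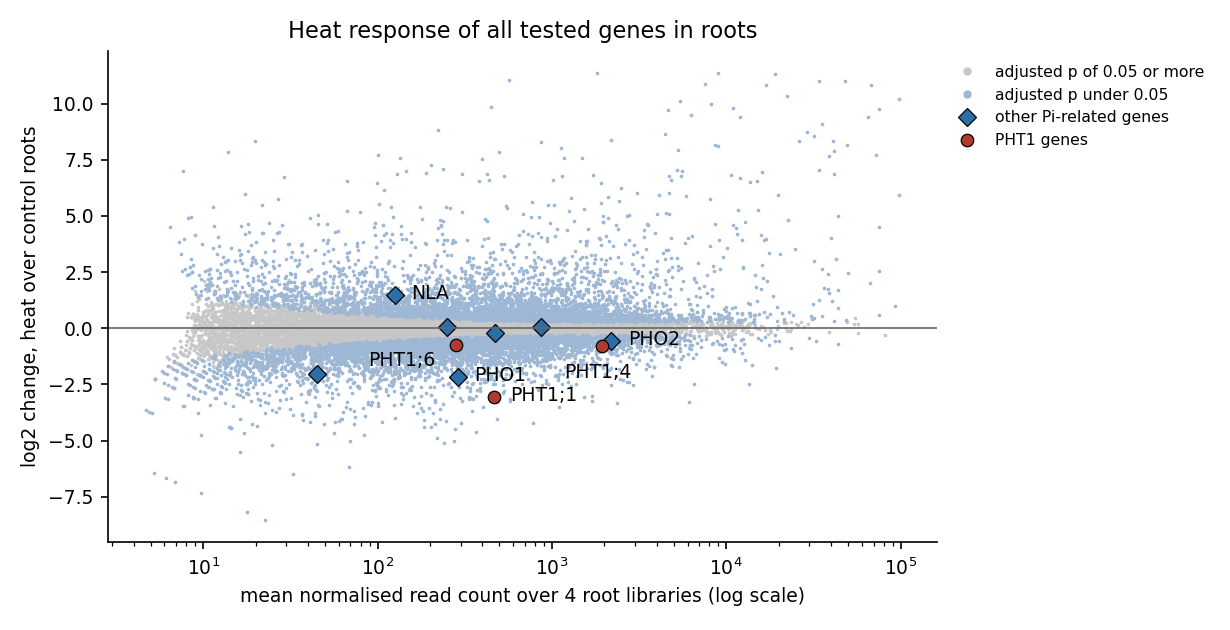
Log2 change of heat over control roots (vertical axis) against the mean normalised count over the 4 root libraries (horizontal axis, log scale) for the 18453 genes tested. Blue points were called at an adjusted p under 0.05 and grey points were not. The PHT1 genes (red circles) lie at -3.07, -0.81 and -0.76, and blue diamonds are the other Pi-related genes.

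The number of genes with a profile like that of a PHT1 gene over all 10 libraries depended on the pseudocount. Likeness was the root mean square difference of centred log2(CPM + 1) profiles over 18134 genes, and 34 genes lay within 0.5 of PHT1;1, 64 within 0.5 of PHT1;4 and 1065 within 0.5 of PHT1;6. With a pseudocount of 10 CPM these numbers were 455, 153 and 1934. The gene nearest to PHT1;1 was MLOC_45043, at 0.0615. It had 88 and 83 reads in heated roots, 951 and 987 in control roots and no read in the 6 shoot libraries. Its root response had a log2 change of -3.01 (quasi-likelihood test of edgeR, adjusted p = 7.1e-06). The gene nearest to PHT1;4 was MLOC_3236, at 0.118, with 969 and 1085 reads in heated roots, 2105 and 2551 in control roots and no read in shoots. The references used here give no name for either identifier.

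Of 7 other Pi-related genes with an identifier in the study's list, 3 were called lower and 1 higher in heated roots, against 22.4% and 21.5% of all genes tested. Their median log2 change was -0.19. PHO1 had 101.9 and 107.6 normalised counts in heated and 476 and 467 in control roots, a log2 change of -2.17 (adjusted p = 3.8e-05 from edgeR), which lies between the changes of PHT1;1 and PHT1;4. The gene of the E2 enzyme PHO2 had 1805 and 1744 normalised counts in heated and 2573 and 2634 in control roots, a log2 change of -0.56 (adjusted p = 0.0032 from edgeR). NLA, the gene of the E3 ligase, was the one called higher, with 200.3 and 169.7 normalised counts in heated and 63.8 and 68.1 in control roots (log2 change 1.48, adjusted p = 0.00085 from edgeR). The third gene called lower was SPX-MFS, and PHR1, PHR2 and SIZ1 were not called. With scaling to total reads PHR1 and SIZ1 were called lower, but so were 9071 of all 18453 genes tested. In shoots PHO2 was the 1 gene called of the 6 tested, with a log2 change of -0.37 (adjusted p = 0.0087 from edgeR). Of all genes tested in shoots, 38.5% were called in either direction. With scaling to reads in genes SIZ1 was called lower as well. Of 16216 genes, 4026 were called lower with scaling to total reads and 5597 with scaling to all reads in genes. PHO1, with 5 to 14 reads per shoot library, was not tested there.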

How the data were processed

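Per the labels and the methods, the authors prepared strand-specific libraries from oligo(dT)-selected RNA, used TopHat2 for alignment, HTSeq for counts per gene and DESeq for tests (versions not given in the sources used here). What the authors deposited, for each tissue, is the mean normalised count of each group (a signal value: count divided by size factor), beside their own fold changes, p-values and adjusted p-values, which were not used, as were their tables of called genes.

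Each group mean, written with 15 digits, was split into the whole reads of its libraries by listing all whole-number solutions within 1 unit of the last digit. All root means above 0 had a single solution. In shoots, means above 20000 were not split (102 in heated and 80 in control shoots), and 3 control means with several solutions were settled by alike libraries. Lines that name no gene held 60.6% of the normalised reads in heated and 60.4% in control roots, and 67.7% in heated and 66.6% in control shoots. They were left out.

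The recovered reads were fitted with edgeR 4.0.16 in R 4.3.3 (TMM, filterByExpr, quasi-likelihood test, Benjamini-Hochberg over all genes tested, threshold 0.05), one fit per tissue and one over all 10 libraries for the tissue difference. Standard errors are the log2 change divided by the square root of F. DESeq2 1.42.0, limma 3.58.1 on log2(scaled count + 1 or + 10), other scalings and filters and leaving out each library were alternatives. Scripts were tested on simulated data. Ratios and shares used scipy 1.17.1 in Python 3.11.15, with 95% Clopper-Pearson and Wilson intervals. Genes named are the PHT1 genes, PHO1, PHO2 and NLA of the Pi-related list with values, and the gene with the profile nearest to PHT1;1 and to PHT1;4 (to PHT1;6 only if it was not called in roots), among genes with a mean of at least 1 CPM. The members, lists and tests were chosen with earlier results of these data known. No sequence or coordinate is shown, since no reference used here holds these identifiers.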

Additional observations from a re-analysis of the deposited data

Results flagged for a closer look

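The heat response of PHT1;6 differed between roots and shoots by -1.07 on the log2 scale (adjusted p = 0.025 from an interaction term in edgeR), a difference between 2 tissues under the same treatment that was tested directly. It was not called in every fit. The adjusted p from edgeR was 0.080 without heated shoot library 1, and over 18 alternative fits with edgeR, DESeq2 or limma it ranged from 0.012 to 0.14. Of the other Pi-related genes named, the same term gave -1.79 for PHO1 (adjusted p = 0.0066 from edgeR) and 1.00 for NLA (adjusted p = 0.018 from edgeR), while PHO2, at -0.32 (adjusted p = 0.13 from edgeR), was not called. Of the 7 other Pi-related genes, 3 were called for this term, 2 with a lower and 1 with a higher response in roots than in shoots. Of all 19180 genes tested, 18.3% were called in either direction. The second gene called lower is not among those given with values here. The PHO1 value rests on 5 to 9 reads in each heated and 8 to 14 in each control shoot library, and without heated shoot library 1 its adjusted p from edgeR was 0.053, the highest over 18 alternative fits with a lowest of 0.00048. The NLA value had an adjusted p from edgeR of 0.061 without heated root library 1, the highest over 18 alternative fits with a lowest of 0.0090. Reads with several alignments, which enter no gene count, made up 4.04% of the normalised reads in heated and 2.82% in control roots, and 23.9% in heated and 21.9% in control shoots. This line was not split into libraries, and the difference was not tested. Groups of 2 and 3 libraries were too small to look for a library far from the others.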

How the results depend on the processing

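Over the alternatives other than leaving out a library, 121 of 131 values for the PHT1 genes and for the counts of calls kept their direction and their side of the threshold, or their size. Of 112 values with 1 library left out, 107 did so. Some of the 131 values could hardly change. The shares were set against the group means from which the reads had been split, and a wider tolerance for that split was always counted as kept. The rule for size is wide, since a count of calls may move by a set factor. Genes called for a different response in roots and shoots went from 3512 to 4730 with limma and a pseudocount of 10, which passed as kept. With scaling to all reads in genes, chosen after seeing the data, the shoot response of PHT1;6 was -0.047 and its level in control roots over control shoots -0.40, no longer called. On the TMM scale, also added after seeing the data, the lower bound of PHT1;1 in roots over shoots was 36.6-fold in heat and 401-fold in control. Scaling to total reads gave 9071 genes lower and 1916 higher in heated roots. Within 4-fold of the level of PHT1;4, 8.97% of genes had a lower log2 change. With a pseudocount of 10 CPM, 455 genes lay within 0.5 of PHT1;1, 153 of PHT1;4 and 1934 of PHT1;6. MLOC_45043 stayed the nearest to PHT1;1, while MLOC_3236 was 4th nearest to PHT1;4. Without 1 library, the log2 change of PHT1;6 ranged from -0.95 to -0.54 in roots, from -0.037 to 0.35 in shoots and from -1.24 to -0.79 for the difference between tissues. A lone root library is assumed in these fits to vary like the other groups. The causes were not tested. No paired analysis was possible because the recovered libraries carry no replicate letter. With 2 libraries per root group, exact tests cannot reach 0.05, and depth limits PHT1;1 and PHT1;4 in shoots.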
